A study of Mus musculus with 60 samples.

Results

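A group of 9 genes was lower in the lungs of mice that had inhaled SPIO nanoparticles than in time-matched sham controls at all 6 times studied, and is described here by every probe set that the array holds for it. The genes were Nipbl, Smarca5, Sp4, Mettl16, Tmem30a, Rufy2, Phactr2, Wdcp and 6820431F20Rik, which makes 9 of the 18193 genes and 28 of the 45037 probe sets measured. They were chosen from these same arrays. The probe set with the highest mean of each gene had an adjusted p below 0.05, with the lower mean in exposed mice, at each of the 6 times, and all genes that met this rule (0.0495% of the 18193) are included. The exposed mean alone was below the sham mean at all 6 times for 603 genes (3.31%), and 6 genes (0.0330%) had no overlap at any time. The differences between exposed and sham mice given below are therefore a description of how the genes were chosen and carry no test.

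SPIO nanoparticles are superparamagnetic iron oxide particles. Male Balb/c mice inhaled them as an aerosol for 4 h, nose only, or inhaled only the humidified helium, oxygen and filtered air that carried it (sham). Lungs were taken 0, 6, 24, 48, 96 or 168 h after the exposure ended, from 5 mice in each of the 12 groups, and 1 array was run for each of the 60 mice. All animals were restrained in tubes during exposure. The mice taken at 96 h had in addition been in a plethysmograph, and those taken at 168 h had lived in metabolism cages on a liquid diet, so that a value at these times belongs to mice handled differently from those at earlier times. The age of the animals was not given in the sources used here. RNA came from 1 whole lobe, so that fewer cells of a type and less RNA per cell cannot be told apart.

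The genes have different roles. Nipbl loads cohesin, the ring that holds sister chromatids together and shapes chromatin loops. Smarca5 is the motor of the ISWI complexes, which slide nucleosomes, and Sp4 is a zinc finger transcription factor of the Sp family, whose members bind GC boxes. Mettl16 is an RNA methyltransferase that acts on adenosine. Tmem30a is the partner subunit that most flippases, the pumps that move phospholipids to the inner leaflet of a membrane, need to leave the endoplasmic reticulum. Rufy2 is an endosomal protein with RUN and FYVE domains, Phactr2 binds actin and a protein phosphatase, and Wdcp is a protein with WD repeats. RefSeq lists 6820431F20Rik as a transcribed pseudogene.

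In the mouse assembly GRCm38.p6, Nipbl lies at chr15:8289824-8465315, Smarca5 at chr8:80699943-80739459, Sp4 at chr12:118231686-118301440 and Mettl16 at chr11:74770815-74826855. Tmem30a lies at chr9:79768941-79793430, Rufy2 at chr10:62980174-63017209, Phactr2 at chr10:13207717-13474525, Wdcp at chr12:4842351-4860049 and 6820431F20Rik at chr8:20268286-20297432. The probe sets carry no coordinates in the sources used here, so that the exon or the end of the transcript that each one reads is not known.

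Because Sp4 is itself a factor of the family that binds GC boxes, the 250 bases upstream of the start sites were searched for the GC box GGGCGG on both strands. RefSeq promoters were at hand for 6 of the 9 genes, and not for Nipbl, Wdcp and 6820431F20Rik. Each of the 6 had 1 listed start site, which need not be the outer end of the gene. The window of Phactr2 (chr10:13324290-13324539) lay inside the gene as given above. Those of Mettl16 and Rufy2 reached past the gene starts given above. The box was present upstream of 2 of the 6, Sp4 with 4 matches and Smarca5 with 1, against 32.7% of all 32851 promoters. Both are shown 5′ to 3′ on the minus strand of GRCm38.p6, with the box or its complement in capitals.
Sp4, chr12:118301441-118301690: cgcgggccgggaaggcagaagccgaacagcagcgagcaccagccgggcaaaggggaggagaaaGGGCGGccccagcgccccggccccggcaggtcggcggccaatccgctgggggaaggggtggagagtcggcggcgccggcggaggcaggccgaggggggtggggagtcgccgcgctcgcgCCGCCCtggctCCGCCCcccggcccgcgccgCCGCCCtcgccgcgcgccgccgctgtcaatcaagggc
Smarca5, chr8:80739460-80739709: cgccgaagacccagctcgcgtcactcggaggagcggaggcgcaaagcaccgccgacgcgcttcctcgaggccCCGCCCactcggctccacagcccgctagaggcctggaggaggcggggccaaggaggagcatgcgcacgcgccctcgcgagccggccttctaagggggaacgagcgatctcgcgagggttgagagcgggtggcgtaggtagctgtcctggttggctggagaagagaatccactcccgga
The Sp4 window was 80.0% G and C and that of Smarca5 69.2%, where the median of all promoters was 52.4%. The CCAAT box (CCAAT) was found upstream of Sp4 and Mettl16 (33.8% of all promoters), and the AP-1 site (TGANTCA) upstream of none of the 6 (6.7% of all promoters).

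Every value below is a log2 RMA intensity, and every difference is exposed minus time-matched sham on that scale, with the standard error of a fit over all 60 arrays. Levels are compared only within a probe set. Exposed mice were below sham mice with no overlap in 46 of the 54 comparisons of the highest-mean probe sets. At 0 h this held for 5 of the 9 genes, against 1.13% of all genes. At 6, 24 and 48 h it held for 8 of 9 each (1.23%, 1.42% and 1.07% of all genes), at 96 h for 9 of 9 (1.45%) and at 168 h for 8 of 9 (2.28%). Since the rule used these contrasts, nothing is read from these counts.

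**Figure D1:**
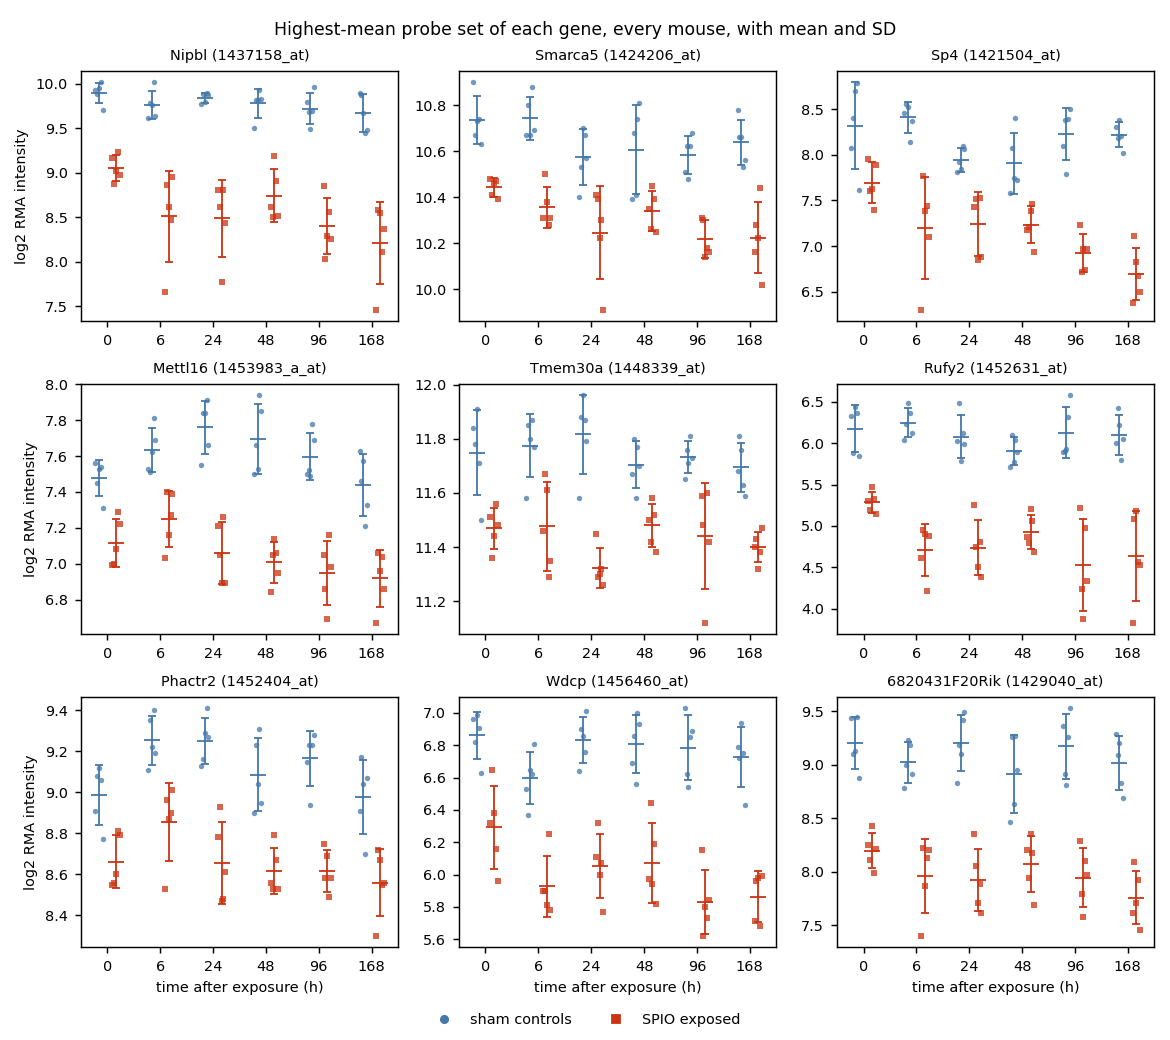
Log2 RMA intensity of the highest-mean probe set of each of the 9 genes in every mouse (y axis, scaled separately for each gene) against time after exposure in h. Blue circles are sham controls, red squares SPIO exposed mice, and the bars give mean and SD of 5 mice. For Nipbl, Rufy2 and 6820431F20Rik all 30 exposed mice lay below the lowest of the 30 sham controls.

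The chromatin genes Nipbl and Smarca5 differed in size of drop. Nipbl (1437158_at) read 9.93, 9.88, 9.95, 10.02 and 9.71 in the 5 sham mice at 0 h and 9.17, 8.87, 9.02, 9.23 and 8.98 in the 5 exposed mice. At 168 h it read 9.90, 9.87, 9.67, 9.45 and 9.48 in sham and 7.46, 8.58, 8.55, 8.11 and 8.37 in exposed mice. The groups did not overlap at any time, and the lowest exposed mouse at 168 h was set well below the other exposed mice. The difference went from -0.84 ± 0.18 (SE, n = 5 and 5) at 0 h to -1.46 ± 0.18 at 168 h, that is from 55.8% to 36.3% of the sham level. Smarca5 (1424206_at) ranged over 10.39 to 10.90 in the 30 sham controls (median 10.67) and over 9.91 to 10.50 in the 30 exposed mice (median 10.31). Its difference lay between -0.41 ± 0.08 at 168 h and -0.27 ± 0.08 at 48 h, and the groups overlapped at 24 and 48 h.

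Sp4, the transcription factor, was nearest to the edge of the rule. Its probe set 1421504_at read 8.08, 8.41, 8.70, 8.79 and 7.62 in sham mice at 0 h and 7.95, 7.60, 7.63, 7.40 and 7.89 in exposed mice. These groups overlapped because of the lowest sham mouse. At 168 h the sham mice read 8.31, 8.19, 8.38, 8.21 and 8.02 and the exposed mice 6.38, 7.11, 6.82, 6.67 and 6.50, with no overlap. The difference was -0.63 ± 0.19 at 0 h and -1.53 ± 0.19 at 168 h (34.7% of the sham level). The largest of the 6 adjusted p values by which genes were chosen was 0.0475 for Sp4, just inside the rule. Just outside stood Spred1 with 0.06 and Stat2 with 0.064, both with the lower mean in exposed mice at every time.

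Mettl16 (1453983_a_at) was lower without overlap at all 6 times, by a smaller amount. Over the 30 sham controls it read between 7.21 and 7.94 with a median of 7.55, and over the 30 exposed mice between 6.67 and 7.40 with a median of 7.05. The difference was smallest at 0 h (-0.36 ± 0.10) and largest at 24 h (-0.70 ± 0.10).

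Of the genes of membranes and endosomes, Rufy2 had the largest drop of the 9 genes when averaged over the 6 times (-1.30) and Tmem30a the smallest (-0.31). Rufy2 (1452631_at) read 5.89, 5.91, 5.93, 6.32 and 6.58 in sham mice at 96 h and 5.22, 4.24, 3.88, 4.97 and 4.33 in exposed mice. The exposed values were spread over more than 1 log2 unit, yet all were below the sham values. Its difference was -1.59 ± 0.20 at 96 h and -0.89 ± 0.20 at 0 h. Tmem30a (1448339_at) read 11.58, 11.88, 11.96, 11.87 and 11.79 in sham mice at 24 h and 11.45, 11.29, 11.30, 11.32 and 11.26 in exposed mice. That was its largest difference (-0.49 ± 0.08, 71.1% of the sham level), and at 48 h it was -0.23 ± 0.08.

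Phactr2, the regulator of actin and phosphatase, and Wdcp followed between these extremes. Phactr2 (1452404_at) ranged from 8.70 to 9.41 in sham controls and from 8.30 to 9.01 in exposed mice, with differences of -0.60 ± 0.10 at 24 h and -0.32 ± 0.10 at 0 h. Its groups overlapped at 0 and 168 h. Wdcp (1456460_at) read 7.03, 6.62, 6.54, 6.85 and 6.89 in sham mice at 96 h and 6.15, 5.62, 5.80, 5.73 and 5.84 in exposed mice, a difference of -0.96 ± 0.12 with no overlap. At 0 h its difference was -0.57 ± 0.12 and the groups overlapped. The pseudogene 6820431F20Rik (1429040_at) ranged from 8.47 to 9.53 in sham controls and from 7.40 to 8.43 in exposed mice, and its difference stayed between -1.28 ± 0.17 at 24 h and -0.85 ± 0.17 at 48 h.

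The other probe sets of the same genes gave mixed values, with some below 0 at several times and others around 0. Of the 9 genes, 8 had more than 1 probe set, 19 further ones in all, and 6820431F20Rik had 1 alone. Exposed mice were all below sham mice in 5 of the 114 comparisons of these 19 and all above in 1, against 46 of 54 for the highest-mean probe sets. The 5 came from Smarca5 1424207_at (2 times), Tmem30a 1416447_at (2 times) and Tmem30a 1416446_at (1 time). The 95% interval of the difference lay below 0 at 4 of the 6 times for Smarca5 1424207_at and Nipbl 1430309_at and at 3 for Tmem30a 1416447_at. Over all probe sets, exposed mice were all below in 1.53%, 2.56%, 2.63%, 1.58%, 3.49% and 3.44% at the 6 times in order. The probe set of each gene that was compared had been picked by its mean level, and the 9 genes then by its difference, so that the other probe sets are values of the same contrast and were not tested.

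**Figure D2:**
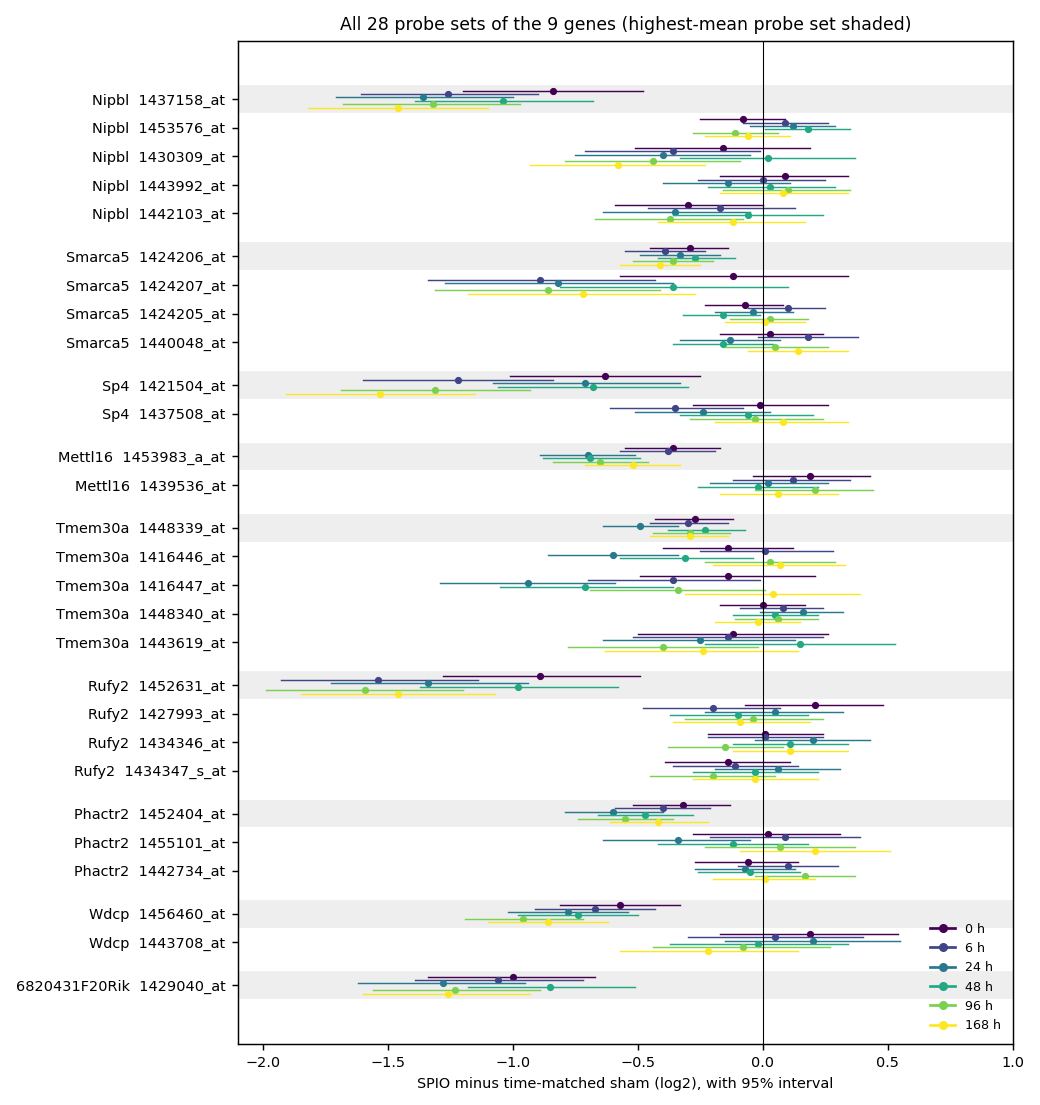
Exposed minus time-matched sham (x axis, log2) for all 28 probe sets of the 9 genes, in order of mean level within a gene (y axis), with points for the 6 times in h and bars for the 95% interval. The shaded highest-mean probe sets lie left of 0 throughout. Most of the other 19 lie around 0, among them Nipbl 1453576_at between -0.11 and 0.18, while Smarca5 1424207_at reaches -0.89.

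Nipbl gave a sharp contrast between probe sets of nearly equal level. Its probe sets 1437158_at and 1453576_at had nearly the same mean over 60 arrays (9.174 and 9.167), so that the rule took the first by a narrow margin. That probe set fell outside the sham range in all 30 exposed mice, whereas 1453576_at ranged from 8.81 to 9.44 in sham controls and from 8.84 to 9.50 in exposed mice, with a median of 9.18 and 9.17. The reading of 1437158_at minus that of 1453576_at in the same mouse, of which only the shift between the arms can be read, was 0.63 ± 0.20 (SD, n = 30) in sham controls and -0.61 ± 0.37 (SD, n = 30) in exposed mice. It was below the lowest sham value in 30 of 30 exposed mice, with all times pooled. Over the 19 pairs of a highest-mean probe set with another of its gene, this count ran from 0 to 30. The rule chose 1437158_at as lower in exposed mice, so that the shift carries that choice and was not tested. The third, 1430309_at, had differences of -0.58 (168 h) to 0.02 (48 h), and 4 of its 6 intervals lay below 0. The 2 dimmest, 1443992_at and 1442103_at, had differences of -0.14 to 0.10 and of -0.37 to -0.06.

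In 2 of the 8 genes another probe set had a larger drop, averaged over the times, than the highest-mean one. For Smarca5 this was 1424207_at (-0.63 against -0.34) and for Tmem30a 1416447_at (-0.41 against -0.31). Smarca5 1424207_at ranged from 9.96 to 10.64 in sham controls and from 8.38 to 10.31 in exposed mice, with a difference of -0.89 at 6 h and -0.12 at 0 h. Smarca5 1424205_at, in contrast, stayed between -0.16 and 0.10.

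The 5 probe sets of Tmem30a fell apart by time. The probe sets 1416446_at and 1416447_at had their largest differences at 24 h, -0.60 and -0.94, and were at 0.07 and 0.04 at 168 h, while 1448340_at stayed between -0.02 and 0.16 and the dim 1443619_at between -0.40 and 0.15. For Rufy2, 1427993_at lay between -0.20 and 0.21, 1434346_at between -0.15 and 0.20 and 1434347_s_at between -0.20 and 0.06, all dim probe sets. All 18 of their intervals took in 0, so that the drop of Rufy2 was seen in 1 of its 4 probe sets.

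The remaining genes had 1 or 2 further probe sets each. Sp4 1437508_at lay between -0.35 (6 h) and 0.08 (168 h), the time at which 1421504_at was lowest. Mettl16 1439536_at lay between -0.02 and 0.21, Wdcp 1443708_at between -0.22 and 0.20, Phactr2 1455101_at between -0.34 (24 h) and 0.21 (168 h) and Phactr2 1442734_at between -0.07 and 0.17. When the probe sets of a gene were averaged, all 54 differences were still below 0, but smaller for the 8 genes with more than 1 probe set. The averages include the probe set by which each gene was chosen. Nipbl then lay between -0.43 and -0.17, Rufy2 between -0.49 and -0.20, Mettl16 between -0.35 and -0.08 and Phactr2 between -0.34 and -0.07.

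Change over time within an arm was read with the moderated F test over the 6 times. For the 9 genes this test uses the same 12 group means and residual variance as the contrasts that chose them, so that their counts depend on the choice and nothing is read from them against the share of all genes. In exposed mice, 3 of the 9 genes passed (7.13% of all genes, 1297 of 18193), namely Sp4, Nipbl and Wdcp, and all of them were highest at 0 h. The number was 1 with the probe sets of a gene averaged, 1 with the exposed arrays fitted alone and 0 by the methods' test (4 had an unadjusted p below 0.05). The exposed group mean of Sp4 was 7.69 at 0 h and 6.70 at 168 h, that of Nipbl 9.06 at 0 h and 8.21 at 168 h, and that of Wdcp 6.29 at 0 h and 5.83 at 96 h. Rufy2, with 5.29 at 0 h and 4.53 at 96 h, did not pass. None of the other 19 probe sets of the 9 genes passed in exposed mice, against 3.83% of all probe sets. Without adjustment 3 of the 19 had a limma p below 0.05.

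In sham controls, 2 of the 9 genes passed (41.0% of all genes, 7463 of 18193), and 0 by the methods' test (1 had an unadjusted p below 0.05). Phactr2 was highest at 6 h with 9.25 and lowest at 168 h with 8.98. Mettl16 was highest at 24 h with 7.76 and lowest at 168 h with 7.44. Leaving out single sham mice took these calls away in 8 cases. Among the other probe sets in sham controls, Tmem30a 1416446_at (adjusted p = 0.002) and 1416447_at (adjusted p = 0.0087) were highest at 24 h, with group means of 11.49 and 10.54 against 10.93 and 9.90 at 168 h. Their large differences at 24 h went with high sham values, while the exposed mean of 1416446_at lay between 10.83 and 11.01 at all times. The exposed mean of 1416447_at was lowest at 24 h (9.60) and highest at 168 h (9.94), and did not pass the time test. Nipbl 1453576_at (adjusted p = 0.0062) and Phactr2 1455101_at (adjusted p = 0.036) also varied, so that 4 of 19 passed against 27.3% of all probe sets.

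Whether the 9 genes rose and fell together from mouse to mouse was tested. The test used the deviation of each mouse from the mean of its own group. The rule used the size of these deviations, as residual variance, but not how those of different genes go together. The 60 mice gave 36 pairs of genes. Pearson's r was positive in 36 of 36, with a median of 0.47 and a range of 0.13 to 0.68, and Spearman's rho had a median of 0.51. In the permutation test within groups, 32 of the 36 passed after Benjamini-Hochberg adjustment over the 36 pairs by r and 33 by rho. Over all pairs of the 18193 genes the median r was 0.01, the 5th and 95th percentiles were -0.35 and 0.43, and 3.55% were at or above 0.47. These background pairs were not chosen by the rule, and the permutation test was not run on them. Pairs of the 9 genes passed from r = 0.28 upwards. The 3.55% is therefore not the share of all pairs that would pass, and is not to be set against the 32 of 36. All values of a mouse come from the same array, so that these deviations share its RNA and its hybridisation.

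**Figure D3:**
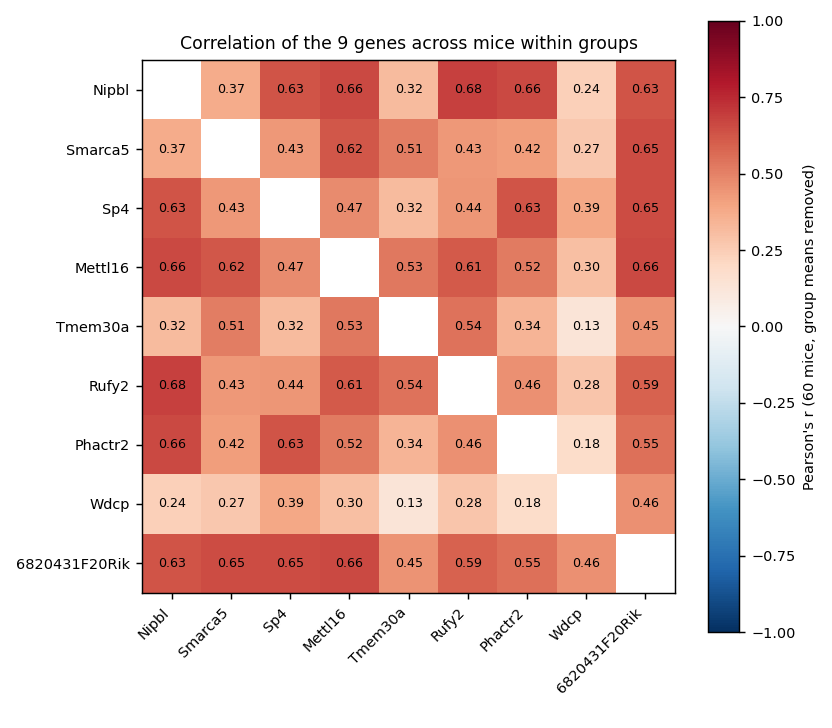
Pearson's r between the highest-mean probe sets of the 9 genes (both axes) over 60 mice with the group means removed. Colour and number give r. The highest was 0.68 for Nipbl with Rufy2 and the lowest 0.13 for Tmem30a with Wdcp.

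Nipbl and Rufy2 were the closest pair (r = 0.68, rho = 0.73, adjusted permutation p = 5.5e-05, r = 0.68 without the 2 mice farthest from the median of Nipbl). Nipbl with Mettl16 and Nipbl with Phactr2 both had r = 0.66 (rho = 0.66 and 0.62, adjusted permutation p = 3.6e-05 each, r = 0.61 and 0.57 without the 2 farthest mice). The exposed mouse 1 at 6 h shows the pattern: it had the lowest Nipbl (7.66), Sp4 (6.30), Mettl16 (7.03), Phactr2 (8.53) and 6820431F20Rik (7.40) of its group, but not the lowest Smarca5 (10.31), Rufy2 (4.61), Wdcp (5.90) or Tmem30a (11.46). The raw permutation p was 2.0e-05 for Nipbl with Rufy2. For Nipbl with Mettl16 and with Phactr2 it was 1.0e-05, the smallest that 100000 permutations can give.

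Wdcp was in all 4 pairs that did not pass, namely with Nipbl (r = 0.24, rho = 0.32, adjusted permutation p = 0.1), with Smarca5 (r = 0.27, rho = 0.26, adjusted permutation p = 0.055), with Phactr2 (r = 0.18, rho = 0.15, adjusted permutation p = 0.22) and with Tmem30a (r = 0.13, rho = 0.13, adjusted permutation p = 0.36). Its closest pair was with 6820431F20Rik (r = 0.46, rho = 0.48, adjusted permutation p = 0.0015, r = 0.52 without the 2 farthest mice). In the sham controls alone the median r of the 36 pairs was 0.53 and 33 passed. In exposed mice alone it was 0.45 and 21 passed. The difference between the arms was not tested.

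Between a highest-mean probe set and another probe set of its own gene the median r was 0.18 over 19 pairs, where it was 0.47 between the highest-mean probe sets of different genes. Of the 19 pairs, 4 passed after adjustment over the 38 same-gene pairs. These were Nipbl 1430309_at (r = 0.82, adjusted permutation p = 9.5e-05), Smarca5 1424207_at (r = 0.64, adjusted permutation p = 9.5e-05), Nipbl 1453576_at (r = 0.48, adjusted permutation p = 6.8e-04) and Tmem30a 1416447_at (r = 0.37, adjusted permutation p = 0.035). Without the 2 farthest mice these were 0.73, 0.55, 0.43 and 0.31. The closest pair without a highest-mean probe set was Tmem30a 1416446_at with 1416447_at (r = 0.78, adjusted permutation p = 9.5e-05), the pair whose sham values peaked at 24 h. The 3 other probe sets of Rufy2 had r of -0.21 to 0.18 with 1452631_at and none passed. Many of the 19 other probe sets were dim. The means of Rufy2 1434347_s_at (2.92), Phactr2 1442734_at (3.15) and Mettl16 1439536_at (4.18) lay below the array medians of 5.54 to 5.64. The 4 that passed had means of 9.05 or more, but bright ones such as Tmem30a 1416446_at (11.02, r = 0.10) did not pass. The medians of 0.18 and 0.47 thus come from probe sets of unlike level. A test of same-gene against different-gene pairs was not made.

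The genes most like the 9 in these arrays were named by their correlation with the mean of the 9, over deviations of 60 mice and over 12 group means. Predicted transcripts and RIKEN clones were passed over, so that closer ones may exist among them. Over the deviations they were Cldnd1 (r = 0.91), Zbed6 (0.90), Zc3h15 (0.90), Rell1 (0.88) and Zfp800 (0.88). Over the group means they were Polr3f (0.99), Zc3h15 (0.99), Cldnd1 (0.98), Spred1 (0.98) and Pdap1 (0.98). Their exposed minus sham difference, averaged over the times, was lowest for Zc3h15 (-0.95) and Zbed6 (-0.82) and nearest to 0 for Rell1 (-0.17). Group means carry the contrast that chose the 9 genes, so that the second list describes that contrast again.

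Relatives of the members and genes of the same processes, called partner genes here, were read from 7 lists. Not all of them work with a member directly. The lists were cohesin with its loaders and releasers, the ISWI complexes, flippases and scramblases, and the Phactr family with phosphatase and actin partners. The others were Sp factors, RNA adenosine methylation, and Rufy proteins with their Rab partners. Of 77 genes measured, 0 were lower and 1 was higher at 0 h by limma's adjusted p, against 1.11% and 2.56% of all genes. At 6 h 0 were lower and 1 higher (0.407% and 0.759%), and at 24 h 7 were lower and 20 higher (3.66% and 20.3%). At 48 h 1 was lower and 11 higher (1.89% and 10.7%), at 96 h 4 and 0 (0.885% and 0.522%) and at 168 h 3 and 1 (1.62% and 0.566%). Where 0 passed, 2 (0 h) and 6 (6 h) were lower and 6 (96 h) higher at an unadjusted p below 0.05, and 0 by the methods' test. At 24 h the median difference was 0.08 over the 77 genes and 0.09 over all genes.

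Nipbl itself loads the ring made of Smc1a, Smc3 and Rad21. At 24 h, Smc1a (0.45 ± 0.06, adjusted p = 8.9e-07) and Smc3 (0.33 ± 0.08, adjusted p = 0.0011) were higher by their highest-mean probe sets. The group mean of Smc1a was 10.19 at 0 h and 9.91 at 24 h in sham, 10.38 and 10.37 in exposed mice. That of Smc3 was 9.23 and 8.81 in sham, 9.19 and 9.15 in exposed mice. At 96 h Pds5a, which regulates the release of the ring, was lower (-0.77 ± 0.17, adjusted p = 0.0068). This call ended with the 3′ over 5′ signal difference of control transcripts as a covariate (-0.80, adjusted p = 0.064). With the compared arrays fitted alone the calls of Pds5a (adjusted p = 0.056) and Smc3 (adjusted p = 0.058) ended. Of the 13 cohesin genes, 4 were higher and 1 lower at 24 h, 2 were higher at 48 h and 1 was lower at 96 h. With the probe sets of a gene averaged, Smc1a turned to -0.83 at 24 h.

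The ISWI partner Rsf1, which forms a remodelling complex with Smarca5, was lower at 168 h (-0.75 ± 0.18, adjusted p = 0.013). The call ended with the 3′ over 5′ covariate (-0.66, adjusted p = 0.075), with the compared arrays alone (adjusted p = 0.085), with the probe sets averaged (-0.48, adjusted p = 0.0515) and without exposed mouse 1 at 168 h (-0.57, adjusted p = 0.11). Pole3 was higher at 24 h (0.27 ± 0.07, adjusted p = 0.0058), but not with its probe sets averaged (0.05, adjusted p = 0.58). Baz2a was higher at 48 h (0.25 ± 0.08, adjusted p = 0.037), a call that was lost or turned in 6 of 10 alternatives and without each of 7 single mice of the 48 h groups (adjusted p up to 0.18).

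The list around Tmem30a held 12 flippases, its relative Tmem30b and the scramblases Xkr8 and Ano6, which let lipids pass in both directions. In the higher direction 7 of these 15 passed at 24 h and 4 at 48 h, and 6 and 3 of the 12 flippases (20.3% and 10.7% of all genes). At 24 h the smallest p values were those of Atp9b (0.48 ± 0.08, adjusted p = 2.5e-05), Atp8b4 (0.68 ± 0.16, adjusted p = 0.0016) and Atp9a (0.39 ± 0.09, adjusted p = 0.0020). Atp9a and Atp9b are flippases known to work without Tmem30a. With the probe sets averaged, Atp9b (0.13, adjusted p = 0.2) and Atp8b4 (0.28, adjusted p = 0.077) no longer passed, and Atp9a did not pass by the methods' test.

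In the Phactr list, the phosphatase subunit Ppp1cb was lower at 24 h (-0.79 ± 0.20, adjusted p = 0.0027), and Mrtfb, a coactivator held by actin, was higher at 24 h (0.37 ± 0.09, adjusted p = 0.0034). The group mean of Ppp1cb was 11.10 at 0 h and 11.81 at 24 h in sham, 10.93 and 11.02 in exposed mice. Phactr1 was higher at 0 h (0.45 ± 0.12, adjusted p = 0.023), but the calls of Mrtfb and Phactr1 ended with the compared arrays alone (adjusted p = 0.07 and 0.13), and that of Phactr1 also without each of 5 single mice of the 0 h groups (adjusted p up to 0.095). Among 6 Sp factors, Sp1 was higher (0.41 ± 0.08, adjusted p = 0.00031) and Sp3 lower (-0.39 ± 0.09, adjusted p = 0.0021), both at 24 h. With the probe sets of a gene averaged, Mrtfb (-0.00), Sp1 (-0.06), Baz2a (-0.09) and the methylation reader Ythdf1 (-0.02) turned below 0.

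In the methylation list, Ythdf1 was higher at 24 h by its highest-mean probe set (0.40 ± 0.07, adjusted p = 6.4e-05). Zc3h13 and Cbll1 of the methyltransferase complex were lower at 96 h (-0.91 ± 0.24 and -0.36 ± 0.10, adjusted p = 0.04 and 0.039). Neither passed with the 3′ over 5′ covariate (-0.65 and -0.34, adjusted p = 0.4 and 0.24) or with the compared arrays alone (adjusted p = 0.052 and 0.12). Of the 10 arrays at 96 h, leaving out 1 ended the call in 7 cases for Zc3h13 and 6 for Cbll1, most of all without exposed mouse 3 (adjusted p = 0.18 and 0.17).

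Of the endosomal list, Rab7 (0.23 ± 0.05, adjusted p = 0.0018) was higher at 24 h. Its group mean was 11.50 at 0 h and 11.28 at 24 h in sham, 11.53 and 11.50 in exposed mice. Fyco1 at 24 h (0.51 ± 0.19, adjusted p = 0.0465) and Rab4a at 48 h (0.29 ± 0.10, adjusted p = 0.0497) passed narrowly. Fyco1 lost its call in 6 of 10 alternatives, among them the methods' test and averaged probe sets (0.33, adjusted p = 0.23), and without each of 6 single arrays (adjusted p = 0.17 without sham mouse 5 at 24 h). Rab4a lost it in 8 of 10 alternatives and without each of 41 of the 60 arrays. Of the 20 named partner genes, 3 kept their call in these 10 alternatives and without any 1 array, namely Ppp1cb, Sp3 and Rab7. All 3 calls were at 24 h. For Ppp1cb and Rab7 the sham mean moved more from 0 h to 24 h than the exposed mean. Sp3 went from 10.36 to 10.54 in sham and from 10.30 to 10.15 in exposed mice. The source of these shifts was not tested.

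The choice of probe set mattered for the partner genes as well. Besides 77 highest-mean probe sets, the 77 genes had 117 others, which were counted in a fit of all 45037 probe sets after the values above had been seen. At 24 h, 4 of the 77 were lower and 17 higher, but 20 of the 117 others were lower and 3 higher, against 5.45% and 10.9% of all probe sets. At 96 h, 4 of 77 and 17 of 117 were lower (4.00% of all probe sets), and none was higher (0.953%). At 168 h, 4 of 77 and 13 of 117 were lower (2.94%) and 1 and 1 higher (0.564%). At 48 h, 1 of 77 and 3 of 117 were lower (1.94%) and 8 and 4 higher (5.41%). At 6 h, 1 of 77 and 10 of 117 were lower (1.65%) and 1 and 0 higher (0.617%). At 0 h, 0 of 77 and 2 of 117 were lower (1.27%) and 1 and 1 higher (1.36%). Where 0 passed in this limma fit, an unadjusted p below 0.05 was reached at 0 h by 2 of the 77 in the lower direction, at 6 h by 5 of the 117 in the higher direction, and at 96 h by 6 of the 77 and 4 of the 117 in the higher direction.

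The 2 others at 0 h were both of Smc1a, and they were the only 2 of the 194 probe sets lower at all 6 times. The share of all probe sets lower at all 6 times was not counted. The share with no overlap between the 30 sham controls and the 30 exposed mice was not counted either. Whether the 2 of 194, or the lack of overlap given next, is unusual can therefore not be told. Smc1a 1417831_at ranged from 8.37 to 9.44 in the 30 sham controls (median 9.07) and from 6.06 to 8.05 in the 30 exposed mice (median 7.43), with no overlap. Its difference was -1.10 ± 0.24 at 0 h (adjusted p = 0.0052) and -2.22 ± 0.24 at 96 h (adjusted p = 7e-09). Smc1a 1417832_at differed by -1.02 ± 0.22 at 0 h (adjusted p = 0.0058) and by -1.75 ± 0.22 at 168 h (adjusted p = 2.7e-07), while the highest-mean 1417830_at ranged from 9.72 to 10.42 in sham controls and from 10.21 to 10.53 in exposed mice. Over deviations of 60 mice, 1417831_at correlated with Nipbl 1437158_at at r = 0.67 and with the mean of the 9 genes at r = 0.84, and 1417830_at at r = -0.06 and -0.18. These pairs were picked after their values had been seen and were not tested.

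**Figure D4:**
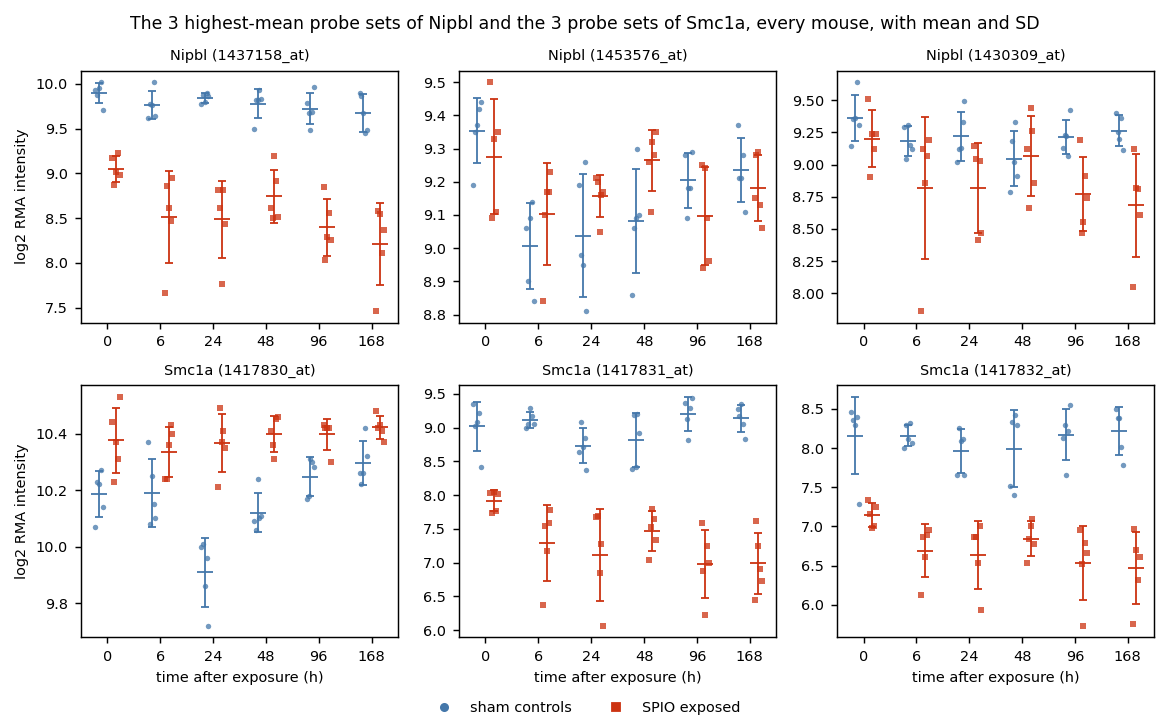
Log2 RMA intensity (y axis, scaled separately for each panel) of the 3 highest-mean probe sets of Nipbl (top) and the 3 probe sets of Smc1a (bottom) in every mouse, against time after exposure in h, with mean and SD of 5 mice. In Nipbl the probe set with the highest mean is low in exposed mice, while in Smc1a the highest-mean one is not and the other 2 are.

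Other partner genes had low probe sets too, in part beside a highest-mean one that was not lower. Probe sets other than the highest-mean one were lower at 4 times in Atp8a1 (1423597_at, -1.33 at 168 h), Baz1b (1450068_at, -1.79 at 24 h), Bptf (1427311_at, -1.96 at 24 h), Sp1 (1418180_at) and Zc3h13 (1430568_at, -1.39 at 168 h). The highest-mean probe sets of Baz1b and Bptf had 0.25 and 0.01 at 24 h. That of Zc3h13 was low as well, with -0.89 at 168 h.

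Array and tissue measures were set beside these results. The lung epithelial markers fitted the tissue label, with a mean level of their list of 11.89 to 12.13 in all 60 arrays and Sftpc and Scgb1a1 among the brightest probe sets. The mean of 11 leukocyte markers, all measured, was 9.19 to 9.58 over sham and 9.30 to 9.85 over exposed groups, with an exposed minus sham difference of -0.11 at 6 h and 0.22 to 0.50 at the other times. The nuclear RNAs Malat1 and Neat1 differed by 0.23 at 0 h and by -0.08 to -0.76 at the other times. The part of these cells and RNAs in the results was not tested. Cardiac muscle, adipose, liver and mesothelium lists varied between single arrays, and sham mouse 1 at 0 h had the highest liver (11.01) and adipose (10.15) levels of 60. Without that mouse the 9 differences at 0 h were -0.94 to -0.25, with Nipbl at -0.84 in both cases. The interquartile range of the values of an array averaged 3.85 in sham mice at 24 h and 3.91 at 48 h. It averaged 4.05 to 4.13 in the other sham groups and 3.98 to 4.03 in the exposed groups. With renewed quantile normalization, partner gene calls summed over the times were 21 lower and 38 higher.

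The signal of the 3′ over the 5′ control probe sets of Gapdh and beta-actin was higher in exposed mice. Shorter labelling and less intact RNA cannot be told apart by this measure. It was 0.68 ± 0.09 against 0.46 ± 0.06 (SD, n = 5 each) at 6 h, 0.76 ± 0.23 against 0.47 ± 0.08 at 96 h and 0.66 ± 0.09 against 0.48 ± 0.05 at 168 h. Each of these had an exact permutation p of 0.0079, the smallest that 5 against 5 can give, and an adjusted p of 0.016 over 6 times. At 0 h it was 0.57 ± 0.07 against 0.52 ± 0.07 (exact permutation p = 0.26), at 24 h 0.62 ± 0.11 against 0.54 ± 0.18 (exact permutation p = 0.42) and at 48 h 0.65 ± 0.14 against 0.48 ± 0.04 (exact permutation p = 0.063). Groups did not overlap at 6, 96 and 168 h.

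**Figure D5:**
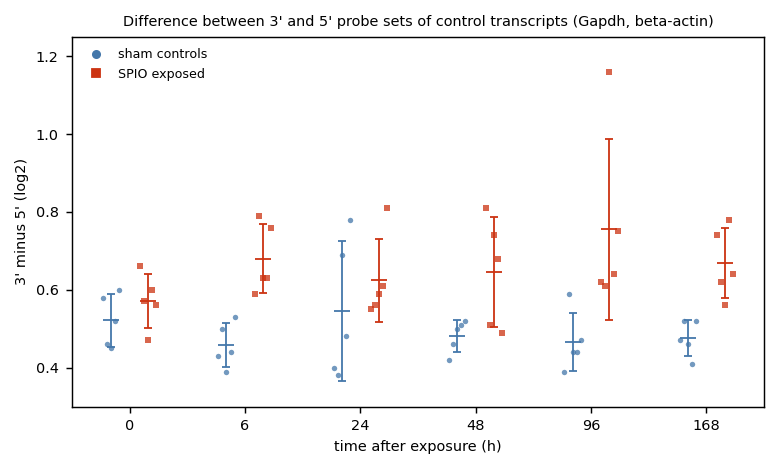
Difference between the 3′ and 5′ probe sets of the control transcripts (y axis, log2, mean of Gapdh and beta-actin) in every mouse against time after exposure in h, with mean and SD of 5 mice. Exposed mice lie above sham controls at 6, 96 and 168 h, and exposed mouse 3 at 96 h stands apart at 1.16.

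Within groups, the deviations of the 9 genes were compared with those of the 3′ over 5′ difference over 60 mice. None of the 9 correlations passed after adjustment. That of Rufy2 was furthest from 0 (r = -0.36, rho = -0.19, raw permutation p = 0.037, adjusted permutation p = 0.33, r = -0.31 without the 2 farthest mice), and it was the only one with a raw p below 0.05. With the 3′ over 5′ difference as a covariate all 54 differences stayed below 0, the sign by which the 9 genes were chosen. Nipbl then lay between -1.48 and -0.85 and Rufy2 between -1.32 and -0.81. Without exposed mouse 3 at 96 h, whose 3′ over 5′ difference was the highest of 60, the difference at 96 h was -1.43 for Rufy2 (-1.59 with it), -0.21 for Tmem30a (-0.29 with it) and -1.30 for Nipbl (-1.32 with it).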

How the data were processed

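Total RNA of 1 lung lobe per mouse was labelled from the 3′ end and hybridised by the authors to whole-genome Affymetrix mouse arrays, and the deposited table holds log2 intensities that the authors normalized with Robust Multi-Array Analysis (RMA). A probe set's level depends on its sequence, so levels were compared only within a probe set. Precision is limited by how many arrays were run. Groups followed the sample labels, with 5 mice per group. The 64 control probe sets were left out, and a gene was read from its highest-mean probe set among the 34945 with 1 gene symbol (932 had several and 9160 none), which gave 18193 genes. One limma 3.58.1 model (R 4.3.3) was fitted over 12 groups, with 48 residual degrees of freedom and Benjamini-Hochberg adjustment over all genes (threshold 0.05). Other probe sets were read from a fit of all 45037. Intervals are 95%. Correlations used deviations from group means and 100000 permutations of mice within groups (Python 3.11.15, numpy 2.4.6, scipy 1.17.1). The models were tested on simulated data.

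The study's methods named an ANOVA that allows unequal variances, followed by Tukey's HSD, and this was run as an alternative. Others were the mean of the probe sets of a gene, renewed quantile normalization, median centring, the 3′ over 5′ difference as a covariate, a filter on low values (6 on the log2 scale in at least 5 arrays), a fit of the compared arrays alone, trend and robust moderation, the replicate number as a block, and leaving out each array. The leaving out of arrays for the correlations and the count over all partner probe sets were added after the data had been seen. Named were all probe sets of the 9 genes and up to 3 genes per partner list with the smallest p among those that passed. The 5 genes most like the 9 by each measure, predicted transcripts and RIKEN clones apart, were named too. The further probe sets of partner genes were named in addition after their values had been seen. The members and lists were chosen with earlier results of these data known. Of the 84 partner genes, 7 had no probe set with 1 symbol. Promoters came from RefSeq (GRCm38.p6).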

Additional observations from a re-analysis of the deposited data

Results flagged for a closer look

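Dixon's test for a single mouse far from the other 4 of its group was applied to the 9 highest-mean probe sets in 12 groups, 108 groups in all. It picked out 4, and chance alone picks out about 1 in 20. Nipbl read 9.50 in sham mouse 1 at 48 h, where the other 4 lay between 9.82 and 9.93. Tmem30a read 11.45 in exposed mouse 1 at 24 h, where the others lay between 11.26 and 11.32. Phactr2 read 8.53 in exposed mouse 1 at 6 h, where the others lay between 8.87 and 9.01, and Wdcp read 6.25 in exposed mouse 4 at 6 h, where the others lay between 5.78 and 5.90. None of these values closed the gap between the arms: Nipbl, Tmem30a, Phactr2 and Wdcp did not overlap between exposed and sham mice at those times. Whether the response of the 20 named partner genes at a later time differed from that at 0 h was tested with 100 interaction terms of the same model, and 0 passed by limma's adjusted p (19 had an unadjusted p below 0.05).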

How the results depend on the processing

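All 54 differences of the 9 genes stayed below 0 under each setting run for them and without any 1 array (54 to 54). The genes had been chosen for this sign, so that nothing is read from the count. Of the 9 genes, the number varying over time in sham controls was 2, but 0 by the methods' test (1 had an unadjusted p below 0.05), and 0 to 3 without 1 array. It was 0 without mouse 4 at 24 h or mouse 4 at 168 h, and 1 without mouse 5 at 0 h, mouse 2 or 4 at 6 h, mouse 2 or 3 at 24 h or mouse 5 at 168 h. In exposed mice it was 3, but 1 with the mean of the probe sets, 1 with the arrays of the comparison alone, 0 by the methods' test (4 unadjusted), and 2 to 4 without 1 array. Partner gene calls summed over the times were 15 lower and 34 higher. They were 33 and 17 with the mean of the probe sets, 3 and 16 with the compared arrays alone, 9 and 21 by the methods' test, 7 lower with the 3′ over 5′ covariate, and 11 to 18 lower and 26 to 43 higher without 1 array. Of the named partner genes, 5 turned with the mean of the probe sets, Smc1a to -0.83, Baz2a to -0.09, Mrtfb to -0.00, Sp1 to -0.06 and Ythdf1 to -0.02. This mean weighs in the other probe sets of those genes. Of the 36 pairs, 32 passed, 21 in exposed mice alone and 28 to 34 without 1 array. The cause of the other changes was not tested. The replicate numbers did not pair the mice: same-numbered exposed and sham mice deviated with r of -0.51 to 0.47 over 30 pairs, of which 7 were above 0.1. With the replicate number as a block 2 of the 9 genes varied in sham controls, 2 in exposed mice, and partner calls were 16 lower and 31 higher. Arrays give no count of molecules, and 5 mice per group limit what can be told apart.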
